A study of Mus musculus with 30 samples.

Results

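The 8 genes described here, Cirbp, Rbm3, Srsf5, Srsf3, Srsf7, Clk1, Clk4 and Hnrnpdl, encode RNA-binding and splicing proteins whose amounts or activity are known to follow temperature. They were taken by gene symbol from the 56951 symbols of the deposited tables. Each of the 8 symbols had 1 row, and each passed the filter that left 12030 genes for testing. The study asked what long circadian misalignment does to aging skeletal muscle. Wild-type male C57BL/6J mice, 14 weeks old at the start and housed singly with a running wheel at 25.0 ± 1.5 °C, spent 64 weeks either on a light-dark cycle with light from 8 to 20 o'clock (LD, n = 14) or on the same cycle advanced by 8 h every 4 days (ADV, n = 16). All had first passed through a light-dark cycle and constant darkness. Gastrocnemius muscle was taken over several hours of the daytime, when both groups shared the light period. The hour at which each mouse was sampled is not given in the labels. From each mouse 1 poly(A) RNA library was sequenced.

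Mammalian RNA-binding proteins of the cold-inducible family, CIRBP and RBM3, accumulate when cells cool slightly below body temperature, and fall when they warm. Body temperature itself has a daily rhythm, and through it these proteins and the splicing machinery can follow the time of day. SR proteins bind exons and promote their inclusion, CLK kinases phosphorylate SR proteins and are more active at lower body temperature, and hnRNP proteins often act against SR proteins at the same transcripts. The transcripts of many of these genes also carry exons that expose them to nonsense-mediated decay, so that a gene-level value counts productive and unproductive transcripts together. Heat shock genes such as Hspa1b, which encodes an inducible HSP70 chaperone, move the other way with temperature. The ratio of Dbp to Bmal1, 2 clock genes of opposite phase, follows the state of the muscle clock. Muscle temperature was not among the values used here.

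RefSeq promoters, each running from 250 bases before to 50 bases after a start in build GRCm38.p6, were found for 6 of the 8 genes, in 7 entries. Rbm3 and Clk1 had none. Both strands were searched for an E-box (CACGTG), a D-box (TTATGTAA or TTACGTAA), a minimal heat shock element (TTCNNGAA or GAANNTTC) and the octamer TCCCCGCC, which is known from the Cirbp promoter as a mild-cold responsive element. Among all 32851 promoters of that length, 7.15% held the E-box, 1.06% the D-box, 15.06% the heat shock element and 5.38% the octamer. Of the 7 entries, 0 held an E-box, a D-box or a heat shock element and 2 held the octamer, 1 of Cirbp and 1 of Srsf7. Because the octamer is known from the Cirbp promoter, its match there is no independent result. The share of all promoters with the octamer bears only on the other genes. The promoters of these 2 genes are shown with that of Srsf5, the only one of the 8 whose level followed Hspa1b past the test, and that of Hspa1b itself, which held a heat shock element 104 bases before its start and the octamer on its other strand. Capitals mark the motifs, and the 4 sequences lie at chr10:80167589-80167888 (plus strand, Cirbp), chr17:80207256-80207555 (minus strand, Srsf7), chr12:80945249-80945548 (plus strand, Srsf5) and chr17:34959189-34959488 (minus strand, Hspa1b).
Cirbp: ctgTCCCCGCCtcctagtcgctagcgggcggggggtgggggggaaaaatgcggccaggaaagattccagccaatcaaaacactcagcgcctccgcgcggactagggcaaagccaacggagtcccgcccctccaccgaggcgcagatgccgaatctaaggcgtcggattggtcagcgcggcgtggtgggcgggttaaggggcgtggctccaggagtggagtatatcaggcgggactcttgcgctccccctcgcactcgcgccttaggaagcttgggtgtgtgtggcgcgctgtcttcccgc
Srsf7: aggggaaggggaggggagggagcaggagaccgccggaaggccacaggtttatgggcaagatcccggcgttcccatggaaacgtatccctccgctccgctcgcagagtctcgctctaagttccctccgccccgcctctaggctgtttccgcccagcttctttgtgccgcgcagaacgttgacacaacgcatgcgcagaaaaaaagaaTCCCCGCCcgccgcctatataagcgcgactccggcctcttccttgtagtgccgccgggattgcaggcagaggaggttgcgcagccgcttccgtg
Srsf5: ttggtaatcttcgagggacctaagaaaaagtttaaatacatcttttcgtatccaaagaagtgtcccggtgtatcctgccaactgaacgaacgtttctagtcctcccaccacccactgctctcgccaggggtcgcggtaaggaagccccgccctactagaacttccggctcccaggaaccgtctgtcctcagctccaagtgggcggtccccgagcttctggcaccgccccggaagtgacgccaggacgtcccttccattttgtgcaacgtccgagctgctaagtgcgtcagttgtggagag
Hspa1b: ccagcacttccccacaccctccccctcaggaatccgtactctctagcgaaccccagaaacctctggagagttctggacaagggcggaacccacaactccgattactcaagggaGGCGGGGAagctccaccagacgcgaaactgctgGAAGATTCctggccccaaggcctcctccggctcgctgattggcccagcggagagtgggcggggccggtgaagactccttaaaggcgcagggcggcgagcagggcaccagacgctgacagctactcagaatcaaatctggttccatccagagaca
The octamer began 247 bases before the Cirbp start and 44 bases before the Srsf7 start. A match describes letters only, and the windows were not tested for function.

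The LD libraries held 19015401 to 28512674 reads on exons, and the ADV libraries 18875468.5 to 25699603.5. The tissue label was checked with 8 genes of the skeletal muscle fiber, among them Acta1, Ckm and Myh4. Their summed level ranged from 72900 to 98500 FPKM (fragments per kilobase of exon, scaled to the size of the library) in LD and from 72300 to 98500 in ADV. Of 12030 genes tested, 1301 (10.8%) differed between LD and ADV at an FDR under 0.05, the false discovery rate of edgeR over all genes tested. The genes set beside the 8 differed between the groups. Hspa1b had a mean of 1.29 ± 0.85 FPKM (SD) in LD and 8.21 ± 12.1 in ADV, with an FDR of 0.00221, and all 16 ADV mice were above the LD median. Dbp had means of 26.8 ± 14.5 and 8.6 ± 3.39 FPKM (FDR 4.82e-04), and Bmal1 of 10.2 ± 3.14 and 16.1 ± 4.07 FPKM (FDR 0.00844). Reads that fit both Hspa1b and its near-identical neighbour Hspa1a may have been lost with the poorly mapped reads, so that the level of either alone is uncertain.

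Of the 8 genes, 0 passed an FDR under 0.05 between LD and ADV in edgeR, against 10.8% of all genes tested, and 2 had an unadjusted p under 0.05, against 30.1% of all genes. With a fold change over 1.3 required as well, 0 of the 8 passed, against 2.09% of all genes. The fitted level of 2 was higher in ADV and that of 6 lower, with a median log2 fold change of -0.07, where the median over all genes was 0.00. The LD and ADV ranges overlapped for each of the 8. DESeq2 called 1 of them, Hnrnpdl, against 14% of all genes. A fit that removed each library's trend with GC content called 3, Srsf3, Srsf7 and Hnrnpdl, against 5.01% of all genes. Because whole muscle was sequenced, fewer cells of a type and less RNA per cell cannot be told apart in any of these values.

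**Figure D1:**
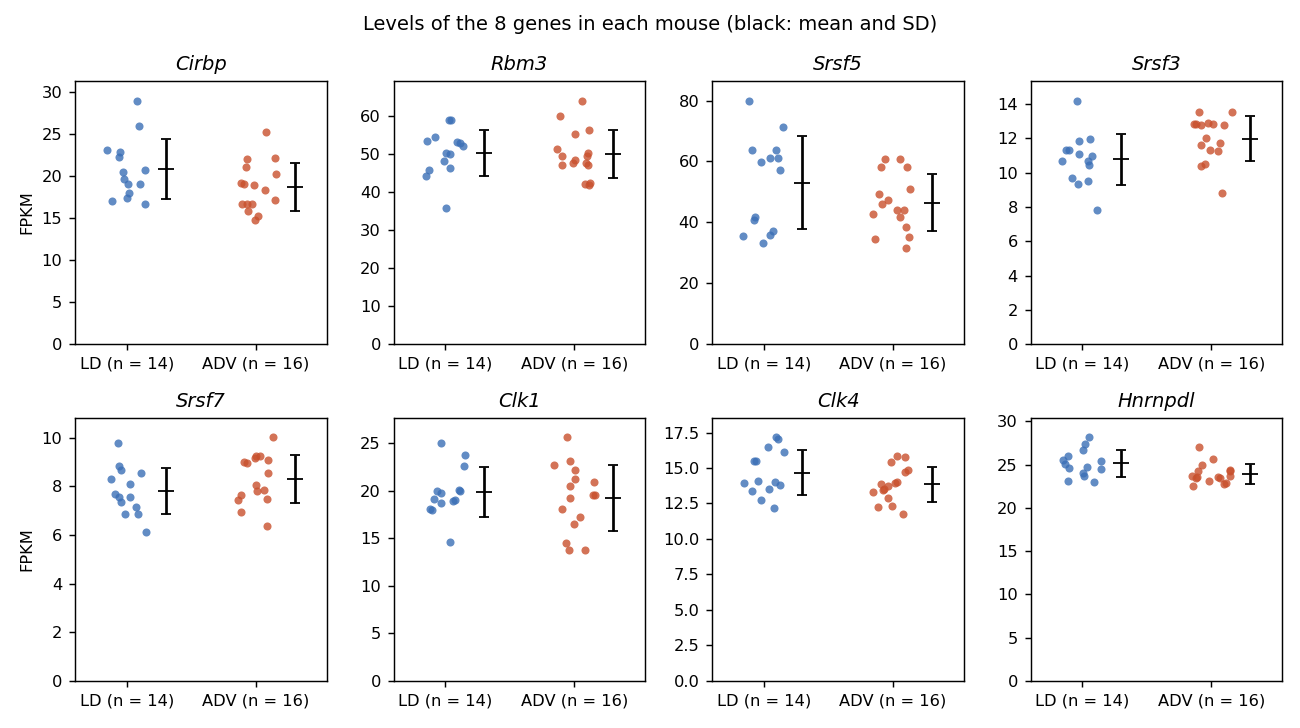
Level of each of the 8 genes (FPKM, linear axes from 0) in each LD mouse (blue, n = 14) and ADV mouse (red, n = 16), with the mean and SD in black. The groups overlap in each panel, and the LD mice of Srsf5 form a lower set of 6 and an upper set of 8.

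Cirbp (GRCm39 chr10:80003612-80007489, plus strand, 7 exons), which encodes the cold-inducible RNA-binding protein, ranged from 16.6 to 28.9 FPKM in LD with a median of 20, and from 14.8 to 25.2 FPKM in ADV with a median of 18.6. The highest LD mouse lay above every ADV mouse, and 11 of 16 ADV mice lay below the LD median. The mean was 20.8 ± 3.55 FPKM (SD, n = 14) in LD and 18.7 ± 2.87 (n = 16) in ADV. The log2 fold change of ADV over LD was -0.17 (SE 0.08, 95% interval -0.34 to 0.00), with an FDR of 0.172 in edgeR.

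Rbm3 (chrX:8007023-8011918, minus strand, 7 exons) encodes the other cold-inducible member of the family and was the more abundant transcript. It ranged from 35.9 to 59.2 FPKM in LD with a median of 51.3, and from 41.9 to 64.2 FPKM in ADV with a median of 49.1. The lowest mouse of all was an LD mouse and the highest an ADV mouse, and the rest of the groups lay over each other. The log2 fold change was -0.03 (SE 0.07, 95% interval -0.17 to 0.12), with an FDR of 0.836. The interval leaves room for a fall of 0.17 or a rise of 0.12 on the log2 scale.

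Srsf5 (chr12:80992278-80997281, plus strand, 8 exons) encodes an SR protein and varied more among LD mice than 97.6% of genes of a like level. It ranged from 33.1 to 80 FPKM in LD with a median of 58.5, and from 31.6 to 60.9 FPKM in ADV with a median of 45.1. The LD mice left a gap, with 6 of them at 41.7 FPKM or lower and 8 at 57.1 FPKM or higher, while 8 of 16 ADV mice lay within that gap. In ADV, 14 of 16 mice were below the LD median. The means were 53 ± 15.2 and 46.5 ± 9.36 FPKM. The log2 fold change of -0.21 (SE 0.12, 95% interval -0.46 to 0.05) had an FDR of 0.258.

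Srsf3 (chr17:29251602-29262347, plus strand, 6 exons), one of the smallest SR proteins, ranged from 7.83 to 14.2 FPKM in LD with a median of 10.8, and from 8.81 to 13.5 FPKM in ADV with a median of 12.4. The ADV mice sat towards the upper end of the LD range, with 13 of 16 above the LD median. The log2 fold change was 0.14 (SE 0.06, 95% interval 0.01 to 0.27), with an FDR of 0.134. Srsf7 (chr17:80507509-80514734, minus strand, 8 exons), an SR protein with a zinc knuckle, was the least abundant of the 8, at 6.12 to 9.77 FPKM in LD (median 7.63) and 6.38 to 10 FPKM in ADV (median 8.29). Its log2 fold change of 0.07 (SE 0.06) had an FDR of 0.432, and 12 of 16 ADV mice were above the LD median. Once the GC trend was removed, the log2 fold changes were 0.24 (FDR 0.0391) for Srsf3 and 0.19 (FDR 0.0317) for Srsf7. The GC content of their exons was 42.7% and 41.1%. That of Srsf5, Clk1 and Clk4, which did not pass in this fit, was similar at 42.0%, 40.9% and 43.3%. With Hspa1b as a covariate the fitted log2 fold changes of Srsf3 and Srsf7 were just below 0, at -0.01 and -0.04.

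The CLK kinases did not pass the test in either direction. Clk1 (chr1:58451159-58463225, minus strand, 13 exons) ranged from 14.6 to 25.1 FPKM in LD with a median of 19.5, and from 13.7 to 25.6 FPKM in ADV with a median of 19.6, so that the ADV range enclosed the LD range. Its log2 fold change was -0.06 (SE 0.08, FDR 0.685), and 0.06 with the GC trend removed. Clk4 (chr11:51153941-51172591, plus strand, 13 exons) ranged from 12.2 to 17.2 FPKM in LD with a median of 14.1, and from 11.8 to 15.8 FPKM in ADV with a median of 13.8. Its log2 fold change was -0.10 (SE 0.06, FDR 0.231), and 11 of 16 ADV mice were below the LD median.

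Hnrnpdl (chr5:100181436-100187081, minus strand, 8 exons), which encodes an hnRNP protein related to HNRNPD, varied least of the 8, with a coefficient of variation of 6.13% in LD and 4.81% in ADV. Among genes of a like level, only 0.6% had a smaller SD in ADV. It ranged from 23 to 28.2 FPKM in LD with a median of 24.9, and from 22.6 to 27 FPKM in ADV with a median of 23.6. The groups overlapped over most of their range, with 13 of 16 ADV mice below the LD median. The means were 25.1 ± 1.54 and 24 ± 1.15 FPKM, and the log2 fold change was -0.09 (SE 0.03, 95% interval -0.15 to -0.03). This small difference had an FDR of 0.0537 in edgeR, 0.0312 in DESeq2 and 0.0334 with the GC trend removed.

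Some of these values may include reads of genes on the opposite strand, because the sources used here do not say whether counting used the strand. Enoph1, a protein-coding gene, shared 35.1% of the exon bases of Hnrnpdl, and its own row had a mean of 3.49 FPKM and an FDR of 0.868. Gm73175, a long non-coding RNA, shared another 3.3%. Gm67261, also a long non-coding RNA, shared 26% of the exon bases of Cirbp. Rbm3 overlapped Rbm3os (mean 0.0961 FPKM), Srsf3 overlapped Trp53cor1 (0.128 FPKM), and Srsf5 overlapped Gm20337 (0.0252 FPKM) and Slc10a1, which was listed at 0. No exon of Srsf7, Clk1 or Clk4 overlapped another gene.

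**Figure D2:**
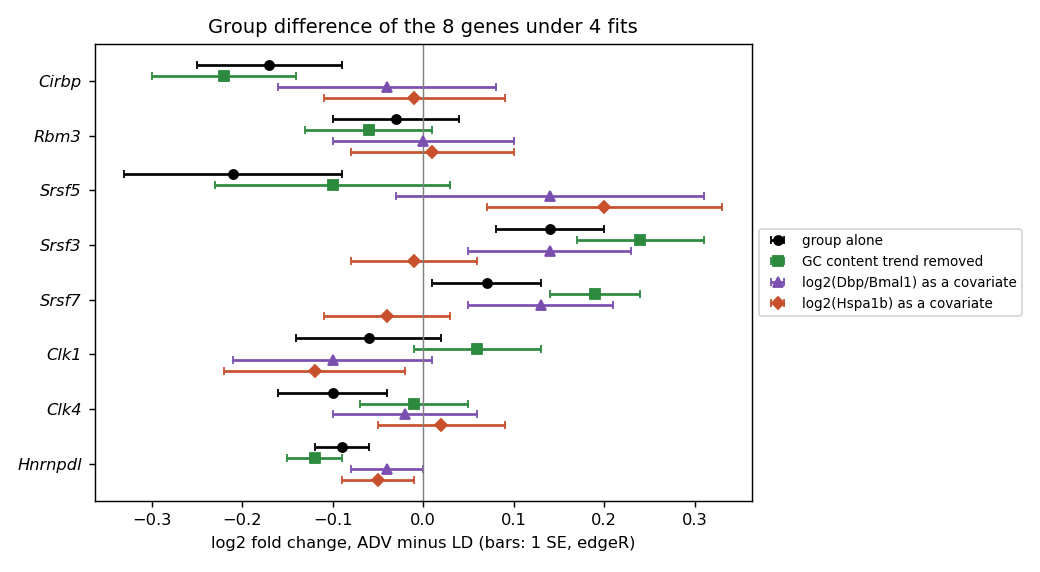
Fitted log2 fold change of ADV over LD for each of the 8 genes (bars, 1 SE, edgeR) with group alone, with the GC trend removed, and with the Dbp/Bmal1 ratio or Hspa1b as a covariate. Srsf5 moves from -0.21 with group alone to 0.20 with Hspa1b as a covariate. Cirbp moves from -0.17 to -0.04 (SE 0.12) with the ratio and to -0.01 (SE 0.10) with Hspa1b. Rbm3 lies near 0 with group alone already, at -0.03.

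In levels, which are per exon length and so can be set between genes, Srsf5 and Rbm3 stood highest in both groups and their means were closer than their SDs. Hnrnpdl, Cirbp and Clk1 followed, and in both groups the means of Cirbp and Clk1 were closer than their SDs. Clk4, Srsf3 and Srsf7 were lower, in that order. The order of Srsf5 and Rbm3, and that of Cirbp and Clk1, turned between LD and ADV, in each case by less than the SDs.

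The cold-inducible genes were then set against Hspa1b and the Dbp/Bmal1 ratio within each group, so that the difference between the groups plays no part. Over the LD mice log2 Cirbp correlated with log2(Hspa1b FPKM + 0.1) at r = -0.62 (permutation p = 0.0175, two-sided) and rho = -0.69 (p = 0.00748, permutation), so that mice with more Hspa1b had less Cirbp. Without the 2 mice farthest from the median of Hspa1b, r was -0.68. Over the ADV mice r was -0.43 (permutation p = 0.0987) and rho -0.44 (permutation p = 0.0942). In the edgeR fit over all genes, the slope of Cirbp was -0.19 (SE 0.07) per unit of log2 Hspa1b in LD with an FDR of 0.164, and -0.06 (SE 0.04) in ADV with an FDR of 0.61. Neither slope passed, and their difference of 0.14 (95% interval -0.02 to 0.30) had an FDR of 0.779.

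Rbm3 showed less of this. Its r with Hspa1b was -0.28 (permutation p = 0.333) in LD and -0.14 (permutation p = 0.608) in ADV, with rho of -0.33 (permutation p = 0.253) and -0.32 (permutation p = 0.231). Without the 2 farthest mice r was -0.38 and -0.42. The slopes were -0.07 (SE 0.07, FDR 0.742) and -0.01 (SE 0.03, FDR 0.977).

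With log2(Dbp/Bmal1), Cirbp had r = 0.49 (permutation p = 0.078) and rho = 0.61 (permutation p = 0.0224) in LD, and r was 0.63 without the 2 mice farthest from the median ratio. In ADV r was -0.05 (permutation p = 0.865) and rho 0.02 (permutation p = 0.935), and without 2 mice r was 0.16. Rbm3 had r = 0.23 (permutation p = 0.423) and rho = 0.34 (permutation p = 0.233) in LD, and r = -0.10 (permutation p = 0.705) and rho = -0.13 (permutation p = 0.641) in ADV. Without 2 mice its r was 0.48 and -0.05. No slope of either gene on the ratio passed an FDR of 0.05, the closest being Cirbp in LD at 0.09 (SE 0.04, FDR 0.421). In all, 12 such relations were tested by permutation, those of Srsf5 included, each by r, by rho and again without 2 mice. The permutation p-values are not corrected for this number. The FDR over all genes belongs to the edgeR slopes, a separate test. The 2 measures were themselves related over the LD mice, at r = -0.69 (permutation p = 0.00545) and rho = -0.79 (permutation p = 0.0012), and r was -0.72 without 2 mice, so that in LD they are not separate axes. In ADV their r was 0.23 (permutation p = 0.385) and rho 0.34 (permutation p = 0.192).

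**Figure D3:**
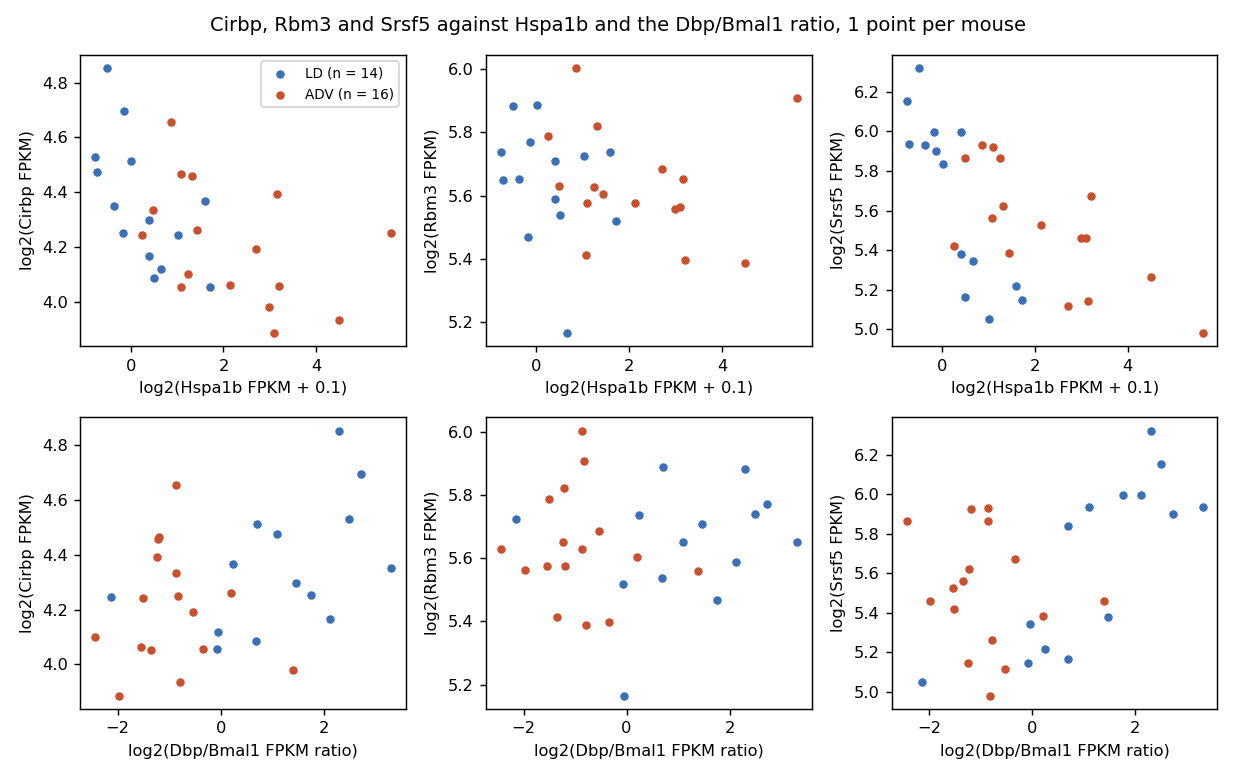
Levels of Cirbp, Rbm3 and Srsf5 (log2 FPKM) against log2(Hspa1b FPKM + 0.1) in the upper row and the log2 ratio of Dbp to Bmal1 in the lower row, 1 point per mouse, LD in blue (n = 14) and ADV in red (n = 16). Srsf5 goes down as Hspa1b goes up, with a gap among the LD mice, while Rbm3 shows a wide scatter.

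Srsf5 was the only one of the 8 whose slopes passed the test. Its slope on log2 Hspa1b was -0.47 (SE 0.08) in LD with an FDR of 0.00168, and -0.14 (SE 0.04) in ADV with an FDR of 0.0472. Hspa1b itself ran from 0.488 to 3.18 FPKM in LD and from 1.09 to 48.8 FPKM in ADV. The 2 slopes thus rest on unlike ranges, low in LD. The ADV slope passed in 11 of 30 fits with 1 mouse left out, and it did not pass with the GC trend removed (FDR 0.141) or with 1 FPKM added to Hspa1b in place of 0.1 (-0.16, FDR 0.0563). With 1 FPKM added the LD slope was -0.76 (FDR 0.00306). Slopes on Hspa1b passed for 2.01% of all genes in LD, 0.806% with a slope below 0, and for 1.76% in ADV, 0.266% with a slope below 0. The difference between the 2 slopes, 0.33 (95% interval 0.16 to 0.50, unadjusted p = 3.91e-04), had an FDR of 0.306 and did not pass. With 1 FPKM added it was 0.60, with an FDR of 0.135. For this difference 0 of all genes (0%) passed in edgeR, and 7.38% had an unadjusted p under 0.05.

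On log2(Dbp/Bmal1) the slope of Srsf5 was 0.24 (SE 0.05) in LD with an FDR of 0.0369, where 0.399% of all genes passed, so that LD mice with a higher ratio had more Srsf5. In ADV it was -0.08 (SE 0.08) with an FDR of 0.923, and 0.0499% of all genes passed. The difference of -0.32 (95% interval -0.51 to -0.13) had an FDR of 0.194, where again 0% of all genes passed and 10.4% had an unadjusted p under 0.05. With both measures in 1 edgeR model, 0 of the Srsf5 slopes passed. On Hspa1b the slope was -0.32 in LD (unadjusted p = 0.00288, FDR 0.833) and -0.13 in ADV (unadjusted p = 9.97e-04, FDR 0.0625). On the ratio it was 0.12 in LD (unadjusted p = 0.0372, FDR 1) and -0.03 in ADV (unadjusted p = 0.668, FDR 0.984). The share of all genes that passed in this model is not given here. Because the measures were related over the LD mice (r = -0.69), this model cannot tell which of them Srsf5 followed in LD.

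Because the LD mice fell into 2 sets at the widest gap in Srsf5, no correlation of Srsf5 with the 2 measures over all of them is given. Within the lower 6, r with Hspa1b was -0.47 (exact permutation p = 0.375, n = 6), and within the upper 8 it was -0.42 (exact permutation p = 0.296, n = 8). With the Dbp/Bmal1 ratio the values were 0.74 (exact permutation p = 0.0694) and 0.30 (exact permutation p = 0.483). Because the sets were defined by Srsf5 itself, its range within each is narrow, and these values say nothing for or against the LD slopes, which span both sets. The widest gap among the ADV mice was smaller, from 51 to 58.2 FPKM, with 12 mice below it and 4 above. Over the ADV mice r of Srsf5 with Hspa1b was -0.71 (permutation p = 0.00212) and rho -0.61 (permutation p = 0.0143), and r was -0.55 (permutation p = 0.044) without the 2 mice farthest from the median of Hspa1b. These Srsf5 correlations were added after its slopes had been seen.

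Of the other splicing genes, Clk4 had a slope of -0.12 (SE 0.05, FDR 0.191) on Hspa1b in LD and of -0.05 (SE 0.02, FDR 0.475) in ADV, and Clk1 of 0.14 (SE 0.08, FDR 0.429) and 0.01 (SE 0.04, FDR 0.977). The 2 kinases thus had fitted slopes of opposite sign in both groups, none of which passed. Srsf3 had slopes of 0.07 (FDR 0.646) and 0.07 (FDR 0.212), Srsf7 of 0.03 (FDR 0.898) and 0.07 (FDR 0.301), and Hnrnpdl of -0.04 (FDR 0.609) and -0.01 (FDR 0.785). On the Dbp/Bmal1 ratio the smallest FDR among these 5 genes was that of Clk4 in LD, with a slope of 0.08 (SE 0.03, FDR 0.164).

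**Figure D4:**
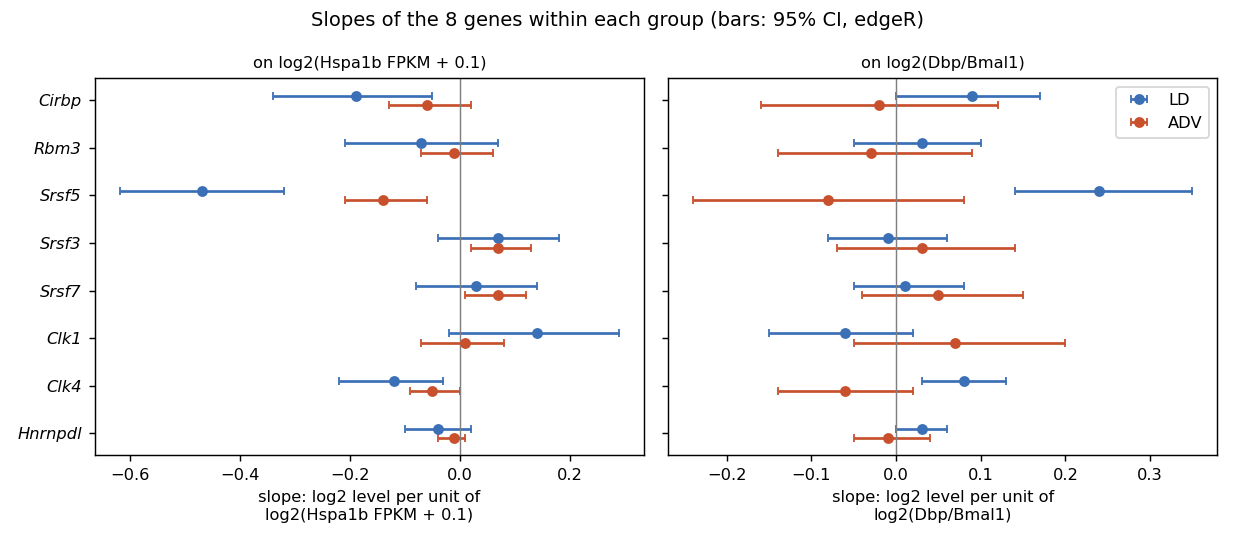
Slope of each of the 8 genes on log2(Hspa1b FPKM + 0.1) (left) and on log2(Dbp/Bmal1) (right) within LD (blue) and ADV (red), in log2 units of the gene per log2 unit of the measure, with 95% intervals from edgeR. Srsf5 in LD, at -0.47 and 0.24, lies farthest from 0 on both.

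Other measures moved with these genes as well. The summed level of 8 satellite cell markers, 15.1 to 19.5 FPKM in LD and 15.6 to 20.2 in ADV, correlated at r = 0.78 with log2 Hspa1b and at r = -0.44 with Cirbp over the LD mice, and at 0.30 and -0.23 over the ADV mice. With Srsf5 it correlated at -0.66 over the LD mice, across the gap in Srsf5, and at -0.01 over the ADV mice. The largest parts of the satellite cell sum were Spry1 and Cdh15, at means of 7.19 and 5.78 FPKM. Their edgeR slopes on Hspa1b in LD were 0.18 (FDR 0.0665) and 0.01 (FDR 0.983), and 0 of the 5 tested markers passed. Pax7, which defines satellite cells, had a mean of 0.31 FPKM and was above 0 in every library. The summed level of 8 Schwann cell markers, 25.4 to 48.6 FPKM in LD and 27.3 to 85.2 in ADV, correlated with Cirbp at -0.73 and with Rbm3 at -0.70 in LD, and at 0.14 and -0.07 in ADV. The muscle fiber sum correlated with Rbm3 at 0.42 in LD and 0.67 in ADV, and the percent of reads on exons at -0.18 and 0.53. Their part in the results, and that of the hour of sampling, was not tested. Of the 8 Schwann markers 7 were tested and 1 was higher in ADV, Ncmap, which encodes a myelin-associated protein, and of the 8 satellite cell markers 5 were tested and 0 passed.

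Among themselves the 8 genes did not move as 1 group. The median absolute r of log2 CPM over their pairs, after each group's mean was taken off, was 0.31 across 30 mice, where it was 0.18 over pairs from 1203 genes tested. Over the 30 mice the highest r of any pair, 0.76, was that of the cold-inducible genes, though in LD alone Srsf3 with Srsf7 and Srsf5 with Clk4, the latter across the gap in Srsf5, were higher, at 0.80 and 0.78. Cirbp and Rbm3 correlated at r = 0.77 (rho 0.79) in LD and 0.74 (rho 0.79) in ADV. Of 12029 other genes, Rbm3 was number 2 in likeness to Cirbp, and Cirbp was number 7 in likeness to Rbm3. These correlations are descriptions over mice whose libraries differed in depth and in the levels of cell type markers. The summed level of 8 slow fiber markers, for 1, ran from 60.1 to 1190 FPKM in LD and from 329 to 2260 FPKM in ADV. The part of depth or composition in the correlations was not tested.

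Srsf3 and Srsf7 correlated at r = 0.80 (rho 0.74) in LD and 0.49 (rho 0.47) in ADV, and Srsf7 was number 5 of 12029 in likeness to Srsf3. Cirbp and Srsf7 were negatively related, at r = -0.32 (rho -0.36) in LD and -0.61 (rho -0.61) in ADV. Srsf3 and Hnrnpdl had r = 0.57 (rho 0.49) in LD and -0.56 (rho -0.51) in ADV, and Srsf3 and Clk4 had r = 0.16 (rho 0.06) and -0.54 (rho -0.55). Clk1 and Clk4 had r = -0.46 (rho -0.45) in LD and 0.33 (rho 0.26) in ADV. The difference between the groups was not tested for any pair.

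**Figure D5:**
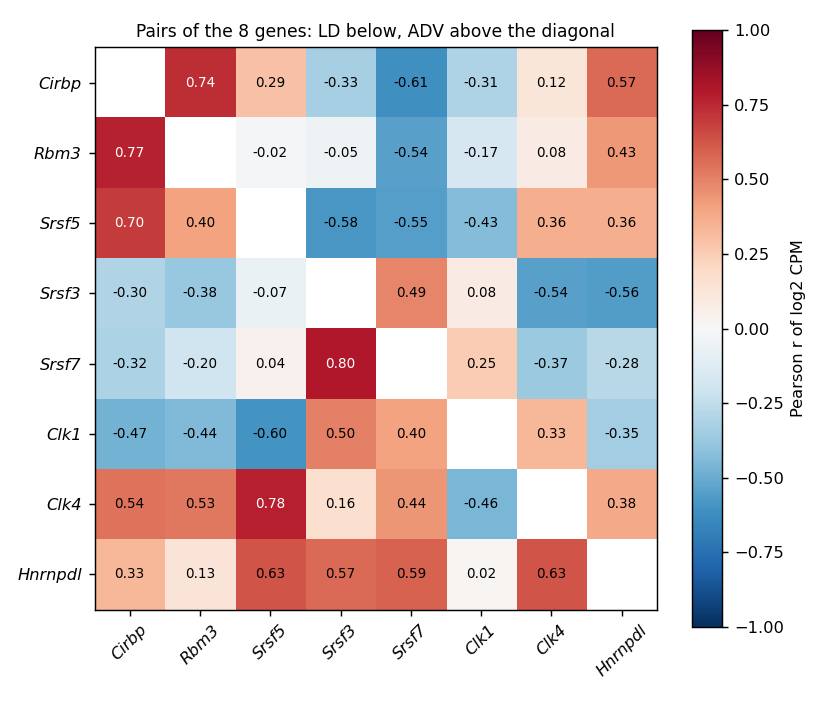
Pearson r of log2 CPM for each pair of the 8 genes, over the LD mice below the diagonal (n = 14) and the ADV mice above it (n = 16), on a scale from -1 to 1. Cirbp with Rbm3 (0.77 and 0.74) and Srsf3 with Srsf7 (0.80 and 0.49) are positive in both groups; the LD values of Srsf5 span the 2 sets of LD mice.

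The genes most like each of the 8 over the 30 mice were found in the same way. Cirbp was most like Dmap1, which encodes a partner of DNA methyltransferase, at r = 0.80, then Rbm3 at 0.76 and Pla2g4e at 0.74. Rbm3 was most like Hmga2-ps1, Cdk5rap3 and Surf4, at 0.79, 0.78 and 0.78. Srsf5 was most like H3f3b, a gene of histone H3.3, at 0.87, then 2410002F23Rik at 0.87 and Slc25a22, a mitochondrial glutamate carrier, at 0.86. Srsf3 was most like Arf2 (0.76), 2310002L09Rik (0.73) and Hspa8 (0.65), the constitutive HSP70 chaperone, and with Hspa8 its r was 0.46 in LD and 0.80 in ADV. Srsf7 was most like Rap1b (0.79), Zfp207 (0.77) and Larp4 (0.77). Clk1 was most like the row named Mir3064 (0.81), which lies within Ddx5 and cannot stand for the mature microRNA in poly(A) libraries, then Arl13b (0.77) and Klf6 (0.75). Clk4 was most like Npc1, Tfdp2 and Lvrn, at 0.83, 0.83 and 0.82. Hnrnpdl was most like Gtpbp4 (0.75), Ggnbp2 (0.70) and Eml5 (0.69).

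The pathways around the 8 genes were described from lists. Of 16 tested SR and SR-like factors outside the 8, 0 passed an FDR of 0.05 in edgeR, with a median log2 fold change of 0.00. With the GC trend removed 1 passed as higher, Srsf1, the founding SR protein gene. The most abundant, Rsrp1, had a mean of 106 ± 17.1 FPKM in LD and 112 ± 19 in ADV. Of 12 kinases and phosphatases of SR proteins, 1 was lower in ADV, the SR protein kinase gene Srpk2, with means of 4.6 ± 0.217 and 4.17 ± 0.488 FPKM (log2 fold change -0.16, FDR 0.035). Srpk2 did not pass with the GC trend removed, with library size alone, without the filter on low genes or by limma on FPKM, and Dyrk2, a gene of the DYRK kinase family, passed as higher by limma and DESeq2.

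Of 25 hnRNP and related genes, 3 were higher and 3 lower. Pcbp1, a poly(C)-binding protein gene, went from a mean of 43.2 ± 3.29 FPKM in LD to 49.3 ± 4.78 in ADV (FDR 0.0138), and Hnrnpu and Hnrnph3 had log2 fold changes of 0.18 (FDR 0.0415) and 0.16 (FDR 0.0372). Hnrnpd, for which Hnrnpdl is named, went from 5.44 ± 0.36 to 4.85 ± 0.293 FPKM (log2 fold change -0.18, FDR 0.00474), and Hnrnpk and Ptbp2 had log2 fold changes of -0.13 (FDR 0.0245) and -0.26 (FDR 0.0453). With the GC trend removed, 3 of this list were higher, Hnrnpa3, Hnrnph3 and Hnrnpu, and 0 lower.

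Of 27 other RBM genes, 2 were higher and 1 lower. Rbm38, an RNA-binding regulator of muscle differentiation, went from 61.6 ± 6.43 to 73.5 ± 9.9 FPKM (log2 fold change 0.24, FDR 0.0155), Rbm10 had a log2 fold change of 0.17 (FDR 0.0122), and Rbm33 of -0.23 (FDR 0.0404). Of 10 genes of nonsense-mediated decay 1 was lower, Upf2, with a log2 fold change of -0.16 (FDR 0.0164). With the GC trend removed 1 RBM gene, Rbm33, and 0 decay genes passed. These 5 lists held 90 tested genes, of which 5 (5.56%) passed as higher and 6 (6.67%) as lower, close to the 5.61% and 5.2% of all genes. Srsf5 was not the only splicing gene with a slope that passed. On Hspa1b in LD 2 of the 25 hnRNP genes and 2 of the 27 RBM genes passed, against 2.01% of all genes. In ADV 1 RBM gene did, against 1.76%. On the Dbp/Bmal1 ratio in LD 1 of the 12 kinase and phosphatase genes passed, against 0.399%.

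The lists behind the 2 measures were counted in the same way. Of 14 heat-inducible chaperone genes and Hsf1 together, 8 were higher in ADV and 0 lower, with a median log2 fold change of 0.33. Of all genes 5.61% were higher and 5.2% lower. The count of 8 includes Hspa1b itself, and the clock counts below include Bmal1 and Dbp. Hspb1, a small heat shock protein gene, went from 95.5 ± 17 to 162 ± 56.5 FPKM (log2 fold change 0.75, FDR 0.00152), and Hspa1a had a log2 fold change of 2.41 (FDR 0.00165). Of 5 clock genes high with Bmal1, 3 were higher in ADV, Nfil3, Cry1 and Bmal1, with log2 fold changes of 1.28, 0.54 and 0.64. Of 10 clock genes high with Dbp, 7 were lower, with Nr1d2 at -0.70, Dbp at -1.66 and Per3 at -0.80. Both covariates of the fits above were therefore tied to group, and with either in the fit hardly any gene passed: 0% of all genes with the ratio, 0.0582% with Hspa1b, and 0 of the 8 with either.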

How the data were processed

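Gastrocnemius RNA of 30 mice (14 LD, 16 ADV) was sequenced as stranded poly(A) libraries, and groups came from the labels. The authors trimmed reads, mapped them to GRCm39 with STAR 2.7.10a, dropped poorly mapped reads with SAMtools and counted exonic reads with HOMER 4.11; whether counting used the strand is not given in the sources used here. They deposited estimated counts, in which each mate adds 0.5 read, so that 14.8% were fractions, and they were rounded to whole numbers here. FPKM values of each row, scaled by the authors for exon length and library total, served for levels.

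Genes with a mean over 20 reads and over 0.5 FPKM were tested, as in the study's methods. LD and ADV were compared by the quasi-likelihood test of edgeR 4.0.16 with TMM scaling (R 4.3.3), with FDR by Benjamini-Hochberg over all genes tested. Slopes were fitted with 1 slope per group on measures centred within groups, with 0.1 FPKM added to Hspa1b. Correlations had 100000 permutations (SciPy 1.17.1), or all permutations for 6 or 8 mice. DESeq2 1.42.0 (the authors' tool), limma 3.58.1 on log2 FPKM, other scalings and filters, covariates, a replicate block and leaving out each mouse were alternatives. Scripts were tested on simulated data. p-values measure the spread between mice, 1 library each.

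The 8 genes and the lists were chosen with earlier results of these data known. Named were the 8 genes, Hspa1b, Dbp and Bmal1, up to 3 genes higher and 3 lower with the smallest FDR from each list (the most abundant if none passed), and the 3 genes most like each of the 8. Acta1, Ckm, Myh4, Ncmap, Pax7, Spry1, Cdh15, Hsf1, the overlapping genes, Dyrk2 and those called with the GC trend removed were named besides, after their values were seen. The 8 marker lists covered skeletal muscle fibers (0 higher, 0 lower), slow fibers (0, 0), endothelium (2, 0), adipocytes (2, 0), fibroblasts (0, 1), leukocytes (0, 0), Schwann cells (1, 0) and satellite cells (0, 0).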

Additional observations from a re-analysis of the deposited data

How the results depend on the processing

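The count of genes between LD and ADV, 1301, was 629 without a filter on low genes, 603 with the GC trend removed, 0 with the Dbp/Bmal1 ratio (1667 at an unadjusted p under 0.05) and 7 with Hspa1b as a covariate, and 835 (without LD 28) to 1542 with 1 mouse left out. Higher genes were 51.9% of the calls, but 65.9% and 65.8% by limma on FPKM and 62.4% with library size alone. The call count of the 8 genes, 0, was 1 with DESeq2 and 3 with the GC trend removed, and 0 to 1 with 1 mouse left out: Hnrnpdl passed without LD 23, 26 or 27 or ADV 23, 27 or 30 (FDR 0.0375 to 0.093 over the 30 fits). Fitted log2 fold changes turned sign for Rbm3 (0.00) and Srsf5 (0.14) with the ratio as a covariate, for Rbm3 (0.01), Srsf5 (0.20), Srsf3 (-0.01), Srsf7 (-0.04) and Clk4 (0.02) with Hspa1b, and for Clk1 (0.06) with the GC trend removed; with 1 mouse left out Rbm3 ran from -0.06 to 0.00. The Srsf5 slope on Hspa1b was -0.51 to -0.43 in LD with 1 mouse left out, with an FDR under 0.05 in all 30 fits, -0.76 with 1 FPKM added to Hspa1b (FDR 0.00306) and -0.32 with both measures in 1 model (FDR 0.833). In ADV it was -0.12 with the GC trend removed (FDR 0.141), -0.13 with both measures (FDR 0.0625) and -0.16 with 1 FPKM added to Hspa1b (FDR 0.0563), and -0.16 to -0.13 with 1 mouse left out, with an FDR of 0.0213 to 0.178 that was under 0.05 in 11 of 30 fits; it was lost without LD 21, 22, 26, 29, 30, 32, 35 or 36 or ADV 21, 25 to 33 or 36, and was highest without ADV 25. Its slope on the ratio in LD was 0.12 with both measures (FDR 1), and 0.22 to 0.29 with 1 mouse left out (FDR 0.0281 to 0.0969, lost without LD 21, 22, 26, 29, 31, 32, 33, 34 or 36). The same slope in ADV was -0.13 to -0.04. The Cirbp slope on the ratio in ADV was 0.00 with both measures and -0.05 to 0.06 with 1 mouse left out, its r there was 0.16 without 2 mice, and the Rbm3 slope on Hspa1b in ADV was -0.08 to 0.01. Beyond fewer mice or genes in some fits, the cause was not tested.

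Replicate numbers were shared by 14 mice of each group. Same-numbered mice correlated at -0.26 to 0.43, with a median of 0.01, and 5 of 28 correlated best with their own number. The labels do not state a pairing, and whether same-numbered mice shared a batch was not tested. With the replicate block 494 genes passed, against 616 without it over the same 28 mice, and 0 of the 8 genes did in either. At this depth the 8 genes, with a mean of 447.3 to 1818.7 reads per library, have a counting error of 2.34% to 4.73% (Poisson), against a coefficient of variation between mice of 4.81% (Hnrnpdl in ADV) to 28.8% (Srsf5 in LD).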
